A study of Gossypium hirsutum with 6 samples.

Results

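Auxin signalling was examined through 3 families of genes in seedlings of upland cotton (Gossypium hirsutum): the TIR1/AFB receptors, the Aux/IAA repressors and the auxin response factors (ARFs). Members were all genes of the deposited table whose matched Arabidopsis locus is one of 43 loci, 4 of receptors, 24 of Aux/IAA and 15 of ARF genes. This gave 188 of 70478 genes, namely 19 receptor, 93 Aux/IAA and 76 ARF genes. A cotton gene carries here the name of its Arabidopsis match and is called a copy of it, and roles given below are known from Arabidopsis. Copies were found for 36 loci, and none was matched to AFB3, IAA1, IAA2, IAA7, IAA12, IAA17 or IAA28. Upland cotton holds an A and a D subgenome, and 91 members lie on A chromosomes, 91 on D chromosomes and 6 on unplaced scaffolds.

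Auxin acts by removing repressors. TIR1 and its AFB relatives are F-box proteins of an SCF ubiquitin ligase, and auxin lets them bind a short degron in Aux/IAA proteins, which are then degraded. Free of Aux/IAA proteins and of the TOPLESS corepressors these recruit, the activating ARFs drive their targets, among which are Aux/IAA genes themselves, while the other ARFs repress. In seedlings this pathway sets elongation, tropic bending, leaf polarity and lateral root formation.

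The seedlings were wild type of the cultivar CCRI24, grown on MS agar at 25 °C with 16 h of light and 8 h of dark. At 4 d they were moved for 24 h to medium with the solvent DMSO or with 5 μM AZD, a compound that competes with ATP at the TOR kinase, a regulator of growth (5 d is the age in the labels). There are 3 libraries of whole-seedling RNA per treatment, which the study calls biological repeats, and the methods to which the study refers for RNA isolation sampled several plants for each replicate. The question addressed was how the genes of auxin perception stand after TOR inhibition. RNA from whole seedlings cannot tell fewer cells of a type from less RNA per cell.

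Libraries are named here by their sample labels, on which every direction rests. For 10 of the 10 members that also stand in the study's own list of auxin genes, the sign of the ratio of group means was opposite to the sign printed there. Exchanged labels and a printed ratio of DMSO to AZD would both give this, and the deposited values alone do not tell them apart. The methods, however, define the fold change as treated over control. The study also reports QRT-PCR of several randomly chosen genes, some lower and some higher under AZD, with the same directions as its RNA-seq. Among the lower ones was a copy of CUL1, the cullin of the SCF ligase. In the table that copy, Gh_D01G2280, stood at 2.78, 2.49 and 2.98 FPKM in the DMSO-labelled libraries and 4.83, 3.99 and 4.68 FPKM in the AZD-labelled ones, without overlap. By the definition in the methods and by the QRT-PCR, the printed signs are those of AZD against DMSO, opposite to the signs by label. Whether the labels were exchanged was not tested. If the labels were exchanged, every higher below would read lower, and every lower would read higher. The first principal component held 37.9% of the variance and separated the groups, and DMSO replicate 1 stood apart on the second (20.8%). The DMSO-labelled libraries resembled one another less (Spearman 0.880 to 0.904 over genes) than the AZD-labelled ones did (0.920 to 0.933). Genes of the light-harvesting antenna summed to 14426, 8656 and 7871 FPKM (fragments mapped to a gene, scaled by its transcript length and the library total) in DMSO replicates 1 to 3 and to 32962, 29634 and 31259 FPKM in AZD replicates 1 to 3. Of the 37 antenna genes tested, 36 had a positive log2 fold change and 20 were past the test (33 without DMSO replicate 1, 3 and 2 without DMSO replicates 2 and 3, and 0 without any 1 AZD replicate), and LHCB4.2 was listed at 0. Root marker genes summed to 57.2, 35.6 and 62.3 FPKM in the DMSO-labelled libraries and to 27.8, 36.6 and 25.3 FPKM in the AZD-labelled ones. Of these 91 genes, 72 averaged below 0.5 FPKM and 19 were tested. Only 1 was past the test, a copy of the nitrate transporter NRT2.1 that was lower (3 root markers without DMSO replicate 2, and 0 without DMSO replicate 3 or any 1 AZD replicate). In 8 of the 19 the groups did not overlap, all on the lower side (42.1%, against 15.5% of all genes). Transcripts of green tissue and of root were thus both present, and their part in the results below was not tested.

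Of the 188 members, 20 were listed at 0 in all 6 libraries, and 148 had a mean of at least 0.5 FPKM and were tested (18 receptor, 72 Aux/IAA and 58 ARF copies). In the AZD-labelled libraries, 2 Aux/IAA copies were higher and no member was lower at an adjusted p under 0.05 (limma across all genes, Benjamini-Hochberg). The same test called 4.69% of the 43158 genes tested, 1.89% higher and 2.80% lower, against 1.35% of the members. At an unadjusted p under 0.05, 36 of the 148 members were found, 18 in each direction, against 23.4% of all genes. The 3 AZD-labelled libraries all lay above the 3 DMSO-labelled ones in 25 members and all below in 22, against 14.5% and 15.5% of all genes. The median log2 fold change was 0.22 for the receptors, −0.06 for the Aux/IAA copies and 0.04 for the ARF copies, beside −0.01 for all genes. The 3 families thus held no larger share of called genes than the table did, and in 19 of the 26 loci with more than 1 tested copy the copies lay on both sides of 0.

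**Figure D1:**
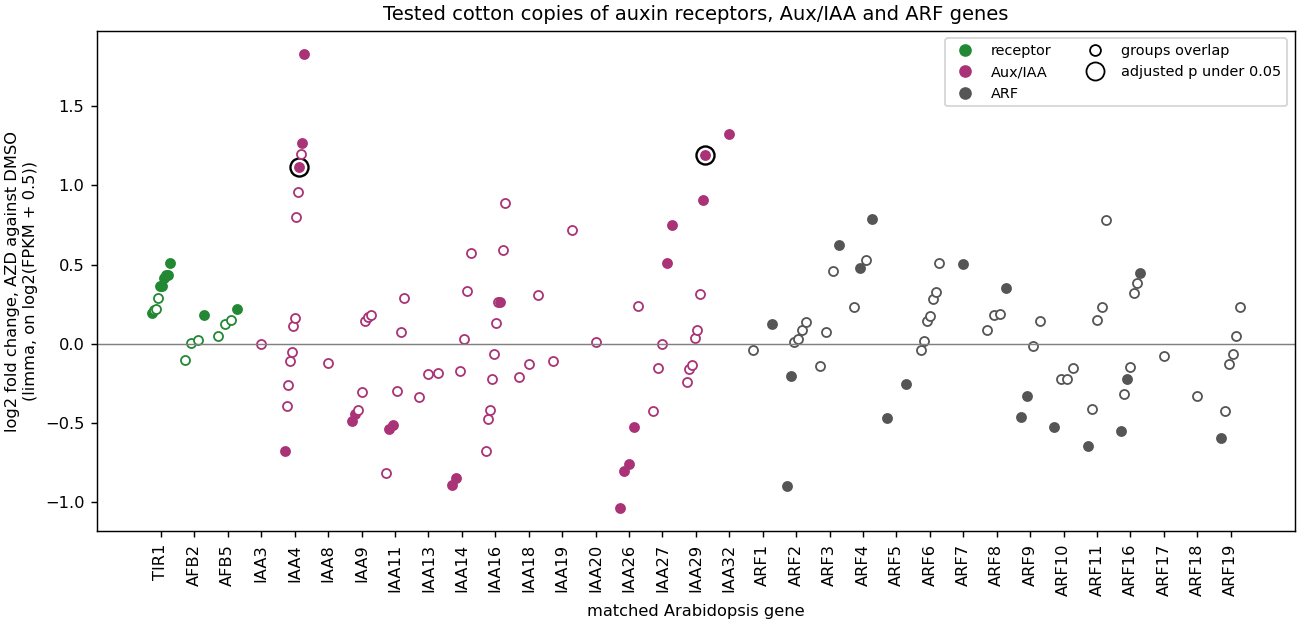
Log2 fold change (y axis, AZD-labelled libraries against DMSO, on log2(FPKM + 0.5)) of each of the 148 tested copies, grouped by the matched Arabidopsis gene (x axis). Colours mark the family, filled points copies whose 3 AZD-labelled libraries lay all above or all below the 3 DMSO-labelled ones, and rings the 2 copies past the test, 1 each of IAA4 and IAA29. All 10 TIR1 copies lie above 0, while IAA4 runs from −0.68 to 1.83.

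The receptors were the family with the most uniform sign. TIR1 (AT3G62980), the founding auxin receptor, has 10 copies in the table, all tested, and all 10 had a positive log2 fold change, from 0.19 to 0.51. Their summed level was 120, 102 and 101 FPKM in the DMSO-labelled libraries and 141, 136 and 132 FPKM in the AZD-labelled ones, with no overlap. In 7 of the 10 copies the groups did not overlap (14.5% of all genes did so on the higher side). None was past the test over all genes, 5 had an unadjusted p under 0.05 (11.4% of all genes, higher), and the lowest adjusted p was 0.0844 (limma). The sign was positive for all 10 copies in each of 14 alternative settings, with medians from 0.32 to 0.40. Of these settings, the changed filters, the fit without trend and the replicate block leave a fold change as it is. Only the other settings could alter a sign. Copies of 1 locus can share reads, so the 10 are not 10 independent observations, and the summed antenna level moved the same way across the groups.

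Gh_D08G1288 had the lowest adjusted p among the TIR1 copies, with 9.69, 10.2 and 9.21 FPKM in the DMSO-labelled libraries and 13.6, 13.1 and 12.7 FPKM in the AZD-labelled ones. This was a log2 fold change of 0.42 (standard error, SE, 0.11), computed on log2(FPKM + 0.5). The largest fold change was that of Gh_D10G0187, at 9.69, 7.23 and 8.30 FPKM versus 12.5, 13.0 and 10.9 FPKM (0.51, SE 0.15, adjusted p = 0.106 by limma). In both copies, which share the value of DMSO replicate 1, every AZD-labelled library stood above every DMSO-labelled library. Gh_D08G0763 stood at 19.3, 17.1 and 17.9 FPKM versus 27.1, 24.1 and 22.7 FPKM (0.43, SE 0.13). Gh_A11G1077, the most abundant receptor copy, differed least, at 24.9, 22.0 and 20.4 FPKM versus 25.9, 25.4 and 25.7 FPKM (0.19, SE 0.12). The weakest copies, Gh_D08G0477 and Gh_A08G0390, had 1.67, 1.61 and 0.803 FPKM versus 1.90, 1.78 and 2.197 FPKM, and 1.24, 1.02 and 1.27 FPKM versus 1.65, 1.84 and 1.17 FPKM, and only the first was without overlap.

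AFB2 (AT3G26810), a close relative of TIR1 with overlapping function, did not show this pattern. Its 4 copies summed to 67.8 ± 6.42 FPKM (SD, n = 3) in the DMSO-labelled libraries and 68.7 ± 0.646 FPKM in the AZD-labelled ones. Gh_A11G0586, its most abundant copy, had 22.4, 21.7 and 26.3 FPKM versus 23.6, 22.9 and 23.7 FPKM, a log2 fold change of 0.00 (SE 0.13). Gh_A07G2125 was its only copy without overlap (0.18, adjusted p = 0.382 by limma). AFB5 (AT5G49980), of the receptor branch that also senses picloram-type auxins, had 4 tested copies with log2 fold changes from 0.05 to 0.22, and 1 copy at 0. Its highest copy, Gh_D05G2130, had 6.55, 5.89 and 7.48 FPKM versus 8.86, 8.46 and 5.35 FPKM, with overlap. Gh_A05G1896 stood at 6.35, 6.35 and 5.83 FPKM versus 7.22, 7.63 and 6.93 FPKM, without overlap. Whether TIR1 differed from AFB2 and AFB5 was not tested.

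**Figure D2:**
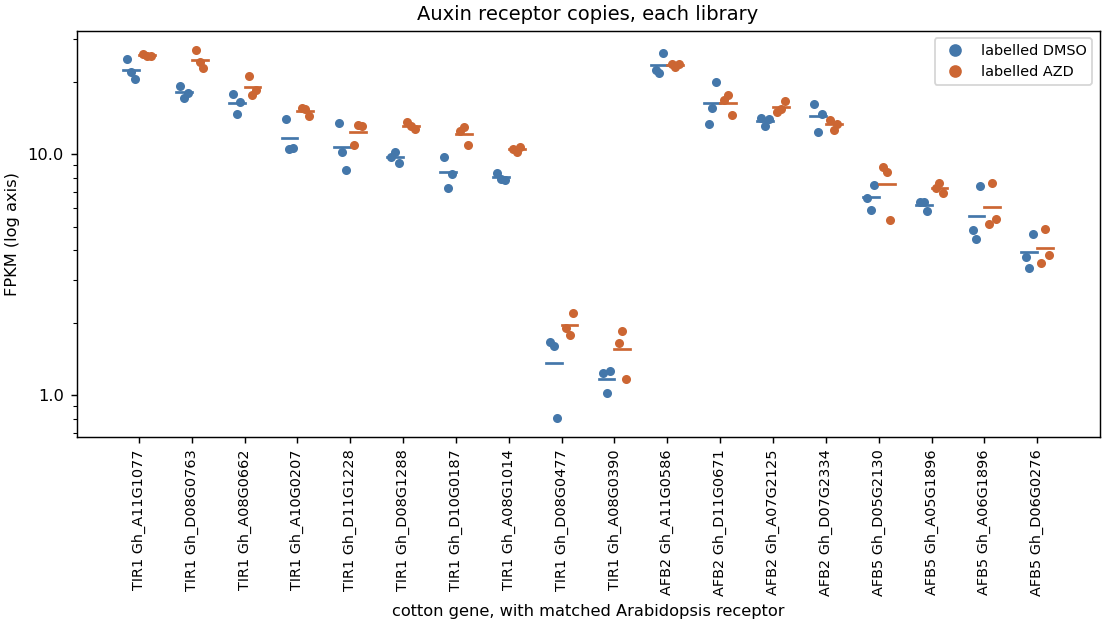
FPKM (y axis, log scale) of the 18 tested receptor copies (x axis) in each library. Points are libraries, blue for the DMSO-labelled ones and orange for the AZD-labelled ones, and bars the group means. The orange means lie above the blue in all 10 TIR1 copies, while the means of the AFB2 copies lie close together.

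The Aux/IAA family held both copies past the test. Gh_A10G1020, a copy of IAA4 (AT5G43700), stood at 3.80, 3.53 and 3.81 FPKM in the DMSO-labelled libraries and at 11.0, 7.80 and 7.51 FPKM in the AZD-labelled ones (log2 fold change 1.12, SE 0.17, adjusted p = 0.0239 by limma). Gh_D05G0138, a copy of IAA29 (AT4G32280), which is induced in shaded Arabidopsis seedlings, stood at 0.896, 0.386 and 0.794 FPKM versus 2.29, 1.99 and 2.24 FPKM (1.19, SE 0.22, adjusted p = 0.0375). In both the groups were far apart. Both calls held without DMSO replicate 1 (adjusted p = 0.0299 and 0.0281 by limma). Without any 1 library other than DMSO replicate 1 both were lost, at adjusted p from 0.0592 to 0.0799 for Gh_A10G1020 and from 0.0513 to 0.155 for Gh_D05G0138 (limma), while their log2 fold changes over all 6 omissions ran from 0.95 to 1.21 and from 0.99 to 1.32. Leaving out DMSO replicates 1 to 3 in turn, 8.36%, 2.52% and 1.15% of all genes tested were called, and leaving out AZD replicates 1 to 3, 0.460%, 0.614% and 0.759%.

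The IAA4 copies did not move as one. Of 13 tested, 8 had a positive log2 fold change, and their summed level was 150 ± 56.3 FPKM (SD, n = 3) in the DMSO-labelled libraries and 135 ± 5.01 FPKM in the AZD-labelled ones. Gh_D09G2152 had the largest log2 fold change of all members, 1.83 (SE 0.40), at 1.66, 0.259 and 0.410 FPKM versus 3.54, 2.96 and 4.30 FPKM. Gh_D10G1512 stood at 2.08, 0.548 and 1.197 FPKM versus 3.75, 2.80 and 4.099 FPKM (1.27, SE 0.34). Both, without overlap, missed the threshold at adjusted p = 0.0572 and 0.0871 (limma). Gh_D08G0665 had 3.27, 0.561 and 0.800 FPKM versus 4.61, 4.22 and 2.12 FPKM (1.201, SE 0.52), and DMSO replicate 1 lay inside the range of the AZD-labelled libraries. In all 3 of these copies DMSO replicate 1 was the highest of its group, and without it they were past the test, at adjusted p = 0.00731, 0.0294 and 0.0375 (limma).

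The most abundant IAA4 copies, on A02 and D02, lay on the other side. Gh_D02G0405 stood at 45.0, 25.8 and 36.9 FPKM in the DMSO-labelled libraries and 19.9, 22.2 and 22.9 FPKM in the AZD-labelled ones, without overlap (log2 fold change −0.68, SE 0.22, adjusted p = 0.128 by limma). Gh_A02G0340 stood at 57.4, 27.3 and 22.8 FPKM versus 26.8, 17.7 and 32.6 FPKM (−0.40, SE 0.39). Gh_A13G1490, also abundant with a mean of 25.0 FPKM, had 0.16 (SE 0.19). The sum over the locus is set by copies such as these and hides the weaker copies, which had both signs.

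IAA29, the other locus with a copy past the test, has 8 tested copies, all of low level. Gh_A05G0079 stood at 0.725, 1.02 and 0.679 FPKM versus 1.61, 2.97 and 1.48 FPKM (log2 fold change 0.91, SE 0.26, adjusted p = 0.103 by limma). The other 6 copies overlapped, with log2 fold changes from −0.24 to 0.31. IAA32, which lacks the degron that the receptors bind, has 1 copy, Gh_D05G3127, at 0.280, 1.92 and 1.24 FPKM versus 3.84, 3.78 and 2.27 FPKM (1.32, SE 0.43, adjusted p = 0.138). Of the 13 copies of the loci without a degron (IAA20, IAA30, IAA32 and IAA33), 11 were below 0.5 FPKM. All 8 copies matched to IAA30 and both matched to IAA33 were among these.

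Tested copies of IAA27 and IAA16 lay on both sides of 0, with 2 positive and 3 negative for IAA27 and 5 of each sign for IAA16. IAA27, also known as PAP2, had 2 copies without overlap, Gh_A05G1076 at 9.62, 7.58 and 12.0 FPKM versus 16.8, 15.8 and 16.7 FPKM (log2 fold change 0.75, SE 0.18, adjusted p = 0.0682 by limma), and Gh_D05G1254 at 10.1, 7.93 and 14.5 FPKM versus 14.8, 15.3 and 15.4 FPKM (0.51). IAA16 had the highest summed level of the Aux/IAA loci, 230 ± 60.8 FPKM (SD, n = 3) against 260 ± 27.7 FPKM, with overlap. Its main copy, Gh_A13G1489, was the most abundant of all members, at 49.8, 61.8 and 62.4 FPKM versus 69.3, 75.5 and 63.7 FPKM (0.26, SE 0.15). Gh_D13G1818 had 44.6, 51.4 and 54.4 FPKM versus 54.1, 59.4 and 50.7 FPKM, and Gh_A06G0239, a copy of IAA9, 34.4, 41.9 and 66.2 FPKM versus 56.3, 58.7 and 40.9 FPKM, both with overlap. Ranked by the sum over all copies, IAA16 was followed by IAA14, IAA9 and IAA4, and the sums of these 4 loci overlapped across libraries.

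IAA26 (AT3G16500), also known as PAP1, was the Aux/IAA locus with the most copies that stood lower without overlap. Of its 5 tested copies, 4 stood lower in every AZD-labelled library than in any DMSO-labelled one, against 15.5% of all genes. Gh_D05G1269 had 2.83, 5.18 and 6.56 FPKM versus 2.26, 2.37 and 1.43 FPKM (log2 fold change −1.04, SE 0.31, adjusted p = 0.112 by limma). Gh_A05G1092 had 5.32, 10.4 and 8.28 FPKM versus 4.63, 4.30 and 3.77 FPKM (−0.80, SE 0.24). Both were past the test without DMSO replicate 1, their lowest DMSO-labelled library (adjusted p = 0.0286 and 0.0221). Gh_D10G0616 and Gh_A10G0575 had log2 fold changes of −0.76 and −0.53, and the fifth copy, Gh_A06G1664, had 0.24. The summed level of the locus was 20.6, 33.1 and 34.9 FPKM versus 21.6, 19.7 and 20.3 FPKM, and DMSO replicate 1 lay within the range of the AZD-labelled libraries. The 4 negative signs stood in each of the 14 alternative settings, some of which, as said for TIR1, cannot alter a sign.

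IAA14 (AT4G14550), the SOLITARY-ROOT repressor of lateral root initiation, was also split. Its copies on A02 and D02 stood lower in every AZD-labelled library. Gh_D02G2389 had 40.6, 31.6 and 61.0 FPKM versus 21.1, 27.7 and 20.2 FPKM (log2 fold change −0.89, SE 0.26, adjusted p = 0.111 by limma). Gh_A02G0341 had 33.7, 20.3 and 38.6 FPKM versus 16.7, 17.2 and 15.2 FPKM (−0.85, SE 0.25), and was past the test without DMSO replicate 2 (adjusted p = 0.0292). The other 4 copies had log2 fold changes from −0.18 to 0.57 with SEs of 0.60 to 0.96, since they differed widely between the DMSO-labelled libraries. Copies of IAA9 and IAA11 also lay below 0 without overlap, 2 of 7 and 2 of 6 tested, at log2 fold changes from −0.44 to −0.54. Over the whole Aux/IAA family 15.3% of the tested copies stood lower without overlap, beside 15.5% of all genes. Of these, Gh_D03G0315 (IAA9) had 12.0, 13.0 and 14.9 FPKM versus 8.87, 9.64 and 9.36 FPKM (adjusted p = 0.0821), and Gh_A11G1231 (IAA11) 4.16, 3.96 and 3.64 FPKM versus 2.12, 2.59 and 2.95 FPKM (adjusted p = 0.0876).

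**Figure D3:**
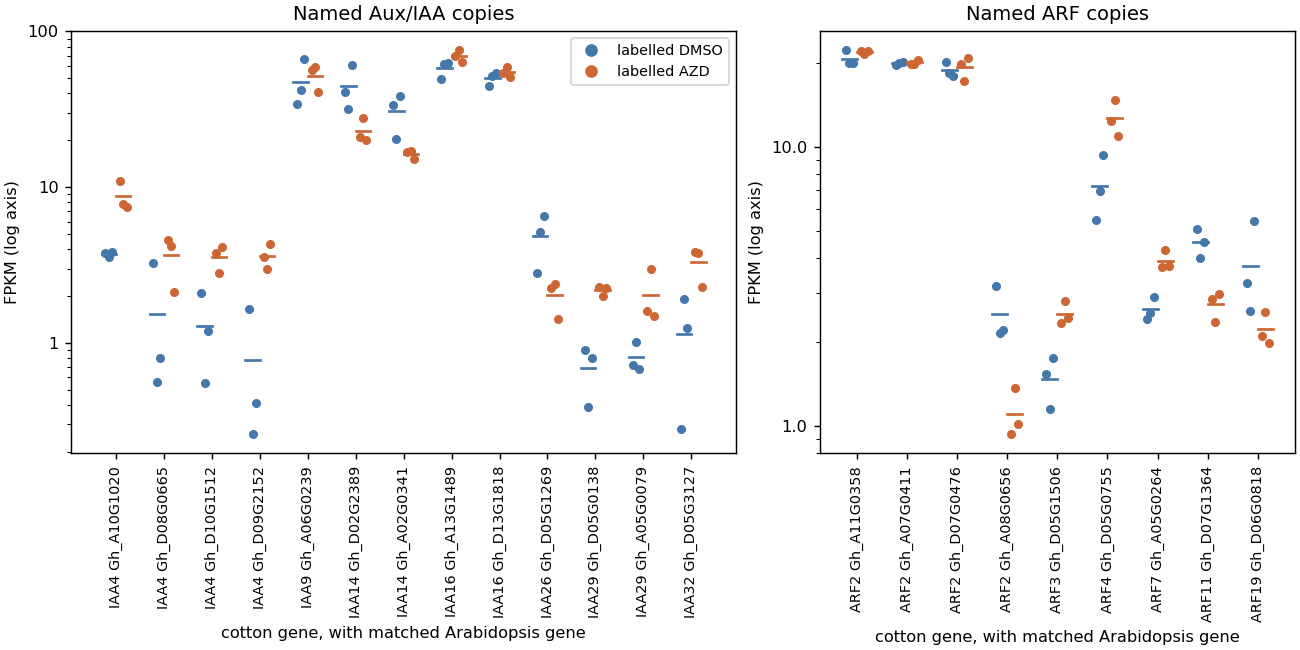
FPKM (y axes, log scale) of the Aux/IAA (left) and ARF (right) copies chosen by the naming rule, in each library. Points are libraries, blue for the DMSO-labelled ones and orange for the AZD-labelled ones, and bars the group means. Gh_A10G1020 and Gh_D05G0138 are the 2 copies past the test, and the 3 abundant ARF2 copies near 20 FPKM coincide between groups.

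The libraries labelled DMSO disagreed with one another over the Aux/IAA genes. The ratio of the highest to the lowest DMSO-labelled library had a median of 2.32 over the 72 tested Aux/IAA copies, beside 1.26 for the receptors, 1.37 for the ARF copies and 1.47 for all genes. Among the AZD-labelled libraries it was 1.39, beside 1.32 for all genes. By a limit of 3-fold, chosen after the values were seen, 27 Aux/IAA copies (37.5%) were wider than this in the DMSO-labelled libraries against 9.82% of all genes, and 5 (6.94%) in the AZD-labelled ones against 5.07%. In 25 of the 27 the lowest was DMSO replicate 2, and the highest was replicate 3 in 14 and replicate 1 in 12. Over all tested Aux/IAA copies DMSO replicate 2 was the lowest of its group in 65.3%, and over all genes in 31.6%. The other families shared this, with 61.1% of the receptor copies and 56.9% of the ARF copies. The root markers showed a like spread: 9 of 19 tested were over 3-fold in the DMSO-labelled libraries, 8 of these 9 lowest in DMSO replicate 2, as were 13 of all 19, with the sums of 57.2, 35.6 and 62.3 FPKM given above. Their part in the Aux/IAA spread was not tested. The summed Aux/IAA level was 866, 633 and 1303 FPKM in the DMSO-labelled libraries and 846, 965 and 812 FPKM in the AZD-labelled ones. The receptors summed to 207, 185 and 202 FPKM versus 235, 233 and 222 FPKM, and the ARF copies to 304, 284 and 330 FPKM versus 315, 339 and 296 FPKM.

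The copies with this spread came from 10 loci, 8 of them of IAA4 and 4 of IAA14. Gh_D09G2153 (IAA14) had 20.0, 3.84 and 72.6 FPKM in the DMSO-labelled libraries and 13.9, 24.5 and 12.0 FPKM in the AZD-labelled ones. Gh_D07G2124 (IAA4) had 6.78, 1.03 and 9.33 FPKM versus 8.26, 9.81 and 8.46 FPKM. Gh_D05G1217, of IAA19, which acts in the bending of the hypocotyl, had 2.77, 0.132 and 1.88 FPKM versus 1.65, 3.49 and 2.04 FPKM. In 17 of the 27 every AZD-labelled library lay inside the range of the DMSO-labelled ones, and none of the 27 was past the test. In 24 of the 27 the groups overlapped, and the 3 others were Gh_D09G2152 and Gh_D10G1512 (IAA4) and Gh_D05G3127 (IAA32), described above. A total of 3 of the 27, all of IAA4 and also described above, were past the test without DMSO replicate 1.

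**Figure D4:**
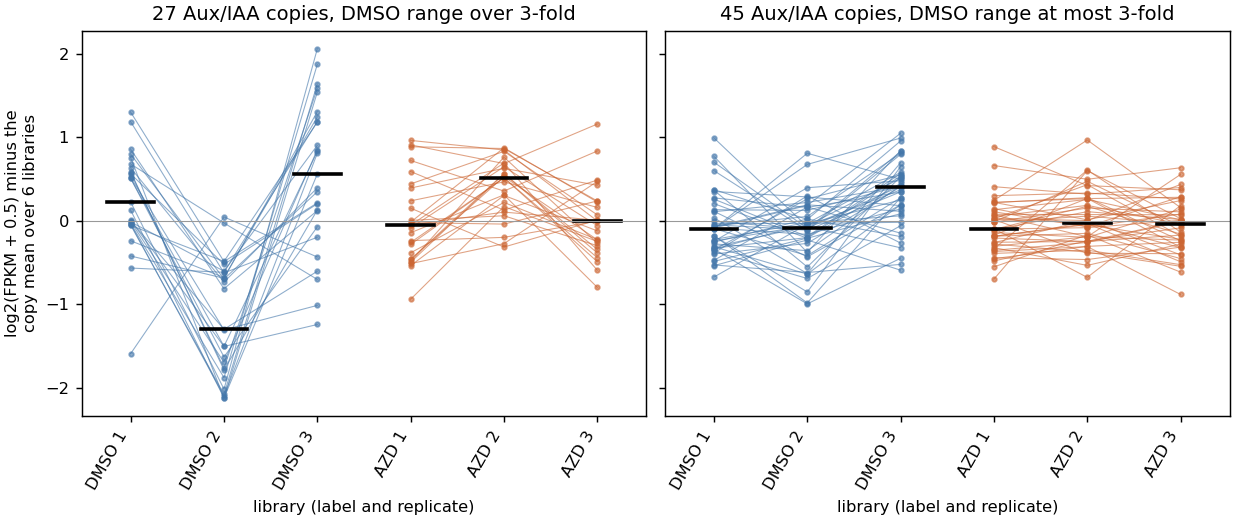
Level of each tested Aux/IAA copy in each library (x axis) as log2(FPKM + 0.5) minus that copy's mean over the 6 libraries (y axis), for the 27 copies over the 3-fold limit in the DMSO-labelled libraries (left) and the other 45 (right). Thin lines join the libraries of 1 copy within a group, and black bars are medians over copies. In the left panel DMSO replicate 2 lies lowest and the AZD-labelled libraries lie near 0.

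No ARF copy was past the test, and the family lay on both sides. At an unadjusted p under 0.05 there were 6 copies with a positive and 7 with a negative value out of 58, against 11.4% and 11.9% of all genes. Grouped by role, the 20 tested copies of activating ARFs (ARF5 to ARF8 and ARF19) had a median log2 fold change of 0.11. The 14 of ARF2, ARF3 and ARF4, targets of trans-acting small RNAs, also had 0.11. The 12 of the miR160 targets ARF10, ARF16 and ARF17 had −0.19, and the 12 of the other repressing ARFs (ARF1, ARF9, ARF11 and ARF18) −0.03. None of these medians was tested.

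ARF4 (AT5G60450) and ARF3 (AT2G33860), which together specify the lower leaf side, had several positive copies. All 4 ARF4 copies were positive, also in each of the 14 alternative settings, some of which cannot alter a sign. The locus summed to 15.5, 15.7 and 21.3 FPKM versus 25.9, 32.1 and 22.7 FPKM. Gh_D05G0755 (ARF4) stood at 5.47, 6.94 and 9.38 FPKM versus 12.4, 14.8 and 10.9 FPKM (log2 fold change 0.79, SE 0.22, adjusted p = 0.0938 by limma). Gh_A09G0993 (ARF4) stood at 5.58, 4.35 and 5.41 FPKM versus 7.21, 8.09 and 6.62 FPKM (0.48, SE 0.14). Neither overlapped between groups. Gh_D05G1506 (ARF3) stood at 1.54, 1.15 and 1.76 FPKM versus 2.34, 2.80 and 2.44 FPKM (0.62, SE 0.17, adjusted p = 0.0891), while the ARF3 copies on A10 and D10 had 0.07 and −0.14. Gh_A06G2038 (ARF3), also in the study's list, averaged 0.356 FPKM and was not tested.

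Among the activators are ARF7 and ARF19, which act together in lateral root formation and tropisms. Gh_A05G0264, the single ARF7 copy, had 2.42, 2.54 and 2.92 FPKM versus 3.73, 4.27 and 3.76 FPKM (log2 fold change 0.50, SE 0.13, adjusted p = 0.0764 by limma). Gh_D06G0818 (ARF19) had 3.26, 2.59 and 5.45 FPKM versus 2.11, 2.58 and 1.99 FPKM (−0.60, SE 0.26, adjusted p = 0.223 by limma). The groups barely separated in this copy and were well apart in the ARF7 copy. The 6 tested ARF19 copies ran from −0.60 to 0.23, 2 of them positive, and the locus summed to 37.8 ± 5.55 FPKM (SD, n = 3) against 36.0 ± 4.08 FPKM. Whether ARF7 and ARF19 differed was not tested. ARF6 and ARF8, which drive flower maturation, were positive in 6 of 7 and 4 of 4 tested copies, with only 1 copy of ARF8 free of overlap. ARF5, or MONOPTEROS, needed for vascular and embryo patterning, was low, and both of its tested copies stood lower in every AZD-labelled library. Of all 20 tested copies of activating ARFs, 3 stood lower without overlap and 2 higher, against 15.5% and 14.5% of all genes. Gh_A01G0908 (ARF5) had 1.05, 1.45 and 1.18 FPKM versus 0.664, 0.750 and 0.813 FPKM (−0.47, SE 0.18, adjusted p = 0.190).

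ARF2 (AT5G62000), a repressor that limits organ size and promotes senescence, was the most abundant ARF locus, and its main copies were level. Gh_A11G0358 had 22.2, 20.0 and 20.0 FPKM versus 22.1, 21.6 and 22.2 FPKM, Gh_A07G0411 had 19.8, 20.1 and 20.1 FPKM versus 19.9, 19.8 and 20.6 FPKM, and Gh_D07G0476 had 20.2, 18.4 and 18.0 FPKM versus 19.8, 17.2 and 20.9 FPKM. Their log2 fold changes were 0.08, 0.01 and 0.03, with SEs of 0.11 to 0.13. A weak copy differed from them. Gh_A08G0656 had 3.18, 2.16 and 2.21 FPKM versus 0.937, 1.37 and 1.02 FPKM (−0.90, SE 0.19, adjusted p = 0.0553 by limma), without overlap.

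Of the 12 tested copies of the other repressing ARFs, 3 stood lower without overlap and 1 higher, against 15.5% and 14.5% of all genes. The ARF9 locus summed to 35.0 ± 0.867 FPKM (SD, n = 3) in the DMSO-labelled libraries and 28.5 ± 0.855 FPKM in the AZD-labelled ones, and the gap came from Gh_A11G0231, at 14.4, 19.1 and 15.3 FPKM versus 11.8, 11.5 and 11.4 FPKM (−0.47, SE 0.14, adjusted p = 0.114 by limma), and Gh_D11G0245, at 11.1, 9.23 and 8.67 FPKM versus 7.65, 7.37 and 7.60 FPKM (−0.33, SE 0.13). Gh_D07G1364 (ARF11) had 5.11, 4.02 and 4.58 FPKM versus 2.86, 2.36 and 2.99 FPKM (−0.65, SE 0.14, adjusted p = 0.0588). All 4 tested copies of ARF10, which acts with ARF16 in the root cap, were negative, from −0.53 to −0.15, and 3 of the 7 of ARF16 were positive. By level, ARF2 was followed by ARF19, ARF6 and ARF9, and the sums of these last 3 overlapped.

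Copies on same-numbered A and D chromosomes gave a view of how far relatives move alike. In 49 such pairs of 1 locus each, 41 had the same sign of log2 fold change, and across pairs, which are not independent replicates and share libraries and possibly reads, Pearson's r of the 2 fold changes was 0.76. The median difference was 0.17 in size, and the A copy was the more abundant in 32. The largest differences were in IAA4. Gh_A08G2485 had 0.914, 0.561 and 0.800 FPKM versus 0.256, 1.36 and 0.748 FPKM (log2 fold change −0.05), while its D partner was Gh_D08G0665 with 1.201. These 2 copies had the same value in 2 libraries, DMSO replicates 2 and 3, and how the authors' counting divided reads between them is not known. In ARF11, Gh_A07G1254 had 5.24, 4.50 and 4.67 FPKM versus 5.98, 5.50 and 4.71 FPKM (0.15, SE 0.13), whereas its D partner Gh_D07G1364 had −0.65. Whether partners differed in response was not tested.

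**Figure D5:**
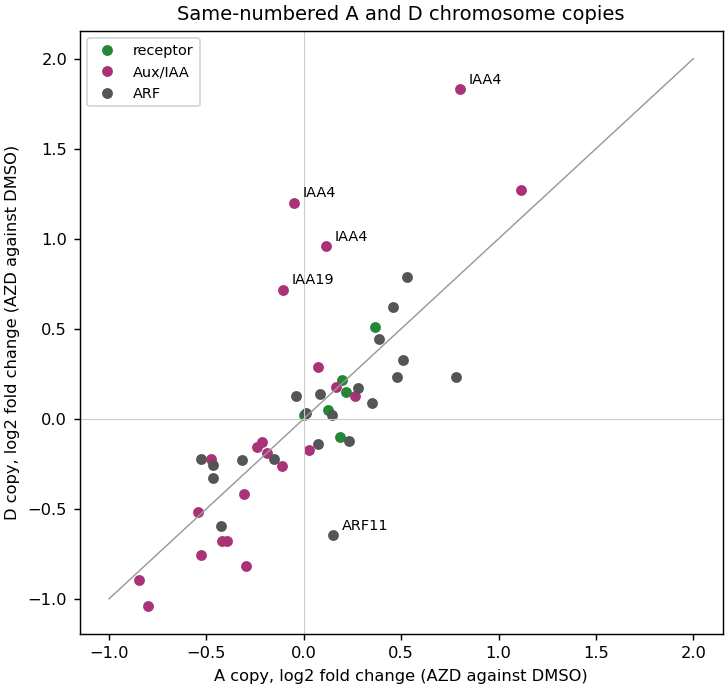
Log2 fold change (libraries labelled AZD against DMSO) of the A copy (x axis) and the D copy (y axis) in the 49 pairs of copies of 1 locus on same-numbered chromosomes. Each point is a pair, coloured by family, the line marks equal values, and labels name the 5 pairs that differ most. Of the pairs, 41 lie in the quadrants of equal sign, and 3 of the 5 labelled are IAA4.

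The partners of these families were taken from lists of Arabidopsis loci. Of the TOPLESS corepressors, which Aux/IAA proteins recruit, all 18 tested copies had a negative log2 fold change as labelled, with a median of −0.29, and in 8 the groups did not overlap (44.4%, against 15.5% of all genes). Their sum was 126, 136 and 138 FPKM in the DMSO-labelled libraries and 108, 109 and 106 FPKM in the AZD-labelled ones. None was past the test. At an unadjusted p under 0.05 there were 8, all negative, against 11.9% of all genes on the lower side. Under the alternatives 16 to 20 tested copies were negative and at most 2 positive. The study prints the reverse sign for the TPL copies it lists, Gh_A05G1044 and Gh_A08G1965. Their log2 fold changes here were −1.11 and −0.66. Gh_D06G1978 (TPR1), the most abundant, had 21.2, 24.3 and 23.1 FPKM versus 18.4, 19.1 and 18.4 FPKM (−0.29, SE 0.11, adjusted p = 0.202 by limma). Gh_A06G1608 (TPR1) had 12.8, 19.1 and 15.6 FPKM versus 11.2, 10.9 and 10.1 FPKM (−0.52, SE 0.17). Of 45 tested genes of the SCF ligase and of NEDD8 conjugation, which carry and activate the receptors, none was past the test. At an unadjusted p under 0.05 there were 4, against 23.4% of all genes, and the median was −0.05.

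Auxin synthesis genes were mostly low, 34 of 44 averaging below 0.5 FPKM and 13 of these listed at 0 in all libraries. Of the 10 tested, 1 was lower, Gh_D08G0759, a copy of YUC10, a flavin monooxygenase that makes auxin from indole-3-pyruvate, at 3.63, 4.69 and 3.48 FPKM versus 1.61, 1.41 and 2.09 FPKM (log2 fold change −1.01, SE 0.18, adjusted p = 0.0339 by limma). No gene of this list was past the test without any 1 library other than DMSO replicate 1. Gh_D08G1285, the most abundant YUC10 copy, had 17.0, 9.59 and 7.42 FPKM versus 13.9, 11.4 and 16.0 FPKM, with overlap. Of 14 tested auxin-induced transcription factors none was past the test (4 at an unadjusted p under 0.05, against 23.4% of all genes), with a median of −0.23. The groups did not overlap in 5 on the lower side (35.7%, against 15.5% of all genes) and in 1 on the higher, the HB2 copy Gh_D12G2139 (0.51). The 5 were all copies of HB8, a vascular factor downstream of ARF5, such as Gh_D05G0479 at 4.15, 4.01 and 3.76 FPKM versus 3.05, 2.79 and 2.60 FPKM (−0.44, adjusted p = 0.0888). Of 16 tested genes that make the small RNAs against these ARFs, none was past the test, and the median was −0.14. At an unadjusted p under 0.05 there were 2, against 23.4% of all genes.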

How the data were processed

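RNA from whole seedlings was sequenced for 3 libraries labelled DMSO and 3 labelled AZD. The authors used TopHat2 for mapping, Cufflinks for assembly and Cuffdiff for comparison, and they deposited FPKM per gene and library. Genome build and tool versions, not given in the sources used here, remain unknown. Per the labels the kit was a TruSeq kit, while the study's methods name a directional one. FPKM hold no read counts, so the depth behind a value is unknown and no count model was used.

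Fold changes were computed with limma 3.58.1 (trend) in R 4.3.3 on log2(FPKM + 0.5), which understates the change of low genes, for genes averaging 0.5 FPKM or more, over the whole table, two-sided, with Benjamini-Hochberg adjustment and a threshold of 0.05. The script was tested on simulated data. Summaries used Python 3.11.15 and pandas 2.3.3. An exact permutation test of 1 gene, 3 libraries on each side, could not pass this threshold. P-values measure the spread between these libraries.

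Members and lists were chosen with earlier results of these data known. The naming rule took copies past the test, the 3 largest rises and falls without overlap and the 3 most abundant copies of each family, the most abundant copy of each receptor locus, and copies in the study's auxin list; it took 29, and other copies were named after their values were seen. The alternatives comprised pseudocounts of 0.1 and 1, no filter, a filter at a mean of 1 FPKM, median-of-ratios rescaling (factors 0.983 to 1.02), quantile normalization, no trend, the replicate number as a block, each library left out, and the log2 ratio of group means. All 6 columns of values were used. None of the gene IDs occurs in the RefSeq gene list, so no sequence or position is given.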

Additional observations from a re-analysis of the deposited data

How the results depend on the processing

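The receptor and ARF counts past the test were 0 under every alternative. For the Aux/IAA copies, and so for all members, the count of 2 higher became 1 with no filter on low values and 0 with the replicate block, and with 1 library left out it ranged from 0 to 5 higher and 0 to 2 lower. Without DMSO replicate 1 there were 5 higher and 2 lower (8.36% of all genes called), without DMSO replicate 2 there were 0 and 2 (2.52%), and without DMSO replicate 3 or AZD replicate 1, 2 or 3 there were none (1.15%, 0.460%, 0.614% and 0.759%). Which copies these were is given beside their values above, with Gh_D08G2060 (IAA11) as the second lower copy without DMSO replicate 2 (adjusted p = 0.0200). The count of 2 higher stayed under both pseudocounts, the filter at 1 FPKM, both rescalings and limma without trend. Gh_D05G0138 missed the threshold with no filter (adjusted p = 0.0516). The median of the Aux/IAA copies turned sign between alternatives, from −0.31 to 0.21, and stayed within its spread between libraries. Of the copies taken by the naming rule, 4 with log2 fold changes near 0 and not past the test changed sign: Gh_A11G0586 (AFB2) to −0.00021 with quantile normalization and, with 1 library left out, from −0.052 to 0.086, Gh_A06G0239 (IAA9) from −0.035 to 0.43, Gh_A07G0411 (ARF2) from −0.0074 to 0.019 and Gh_D07G0476 (ARF2) from −0.030 to 0.11. Of the other copies given with values above, Gh_A08G2485 (IAA4) ran from −0.36 to 0.29 and Gh_D09G2153 (IAA14) from −1.23 to 0.81 with 1 library left out. Likewise Gh_A13G1490 (IAA4) ran from −0.0095 to 0.34 and the ARF3 copy on A10 from −0.074 to 0.16.

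Same-numbered libraries of the 2 groups had correlations of their deviations from the group means of 0.018, −0.042 and −0.088. Differently numbered libraries had correlations from −0.12 to 0.17. With 3 libraries a group, these values cannot decide whether the numbers pair the samples. With the replicate block, Gh_A10G1020 had an adjusted p of 0.0879 and Gh_D05G0138 of 0.103, and the antenna genes, the root markers and auxin synthesis had 0 calls.

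Among the lists, antenna genes higher were 10 with no filter and 0 to 33 with 1 library left out. Root markers lower were 2 with either pseudocount, 0 with no filter, and 0 to 3 with 1 library left out. SCF and NEDD8 genes higher were 1 with the filter at 1 FPKM and with both rescalings, and their median ranged from −0.069 to 0.013 with 1 library left out. Auxin synthesis genes lower were 0 with no filter and 0 to 1 with 1 library left out. Their median was −0.029 with no filter, −0.28 with the filter at 1 FPKM, −0.24 by the ratio of group means and −0.13 to −0.027 with 1 library left out. The tasiRNA median ranged from −0.17 to −0.026, and TOPLESS copies lower from 0 to 1, with 1 library left out.

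At 3 libraries a group and with FPKM only, small differences were not detectable, and a copy that missed the threshold is not shown to be unchanged.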

Other observations

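Several Aux/IAA genes sit beside one another by their IDs. Of 12 pairs of members with consecutive IDs, 11 were Aux/IAA pairs, most of them an IAA4 or IAA16 copy next to a copy of another locus. In 9 of these both copies were tested, and 5 had the same sign of log2 fold change. On D09, Gh_D09G2152 (IAA4) had 1.83 beside Gh_D09G2153 (IAA14) with −0.18, and on A02, Gh_A02G0340 (IAA4) had −0.40 beside Gh_A02G0341 (IAA14) with −0.85. Neighbours were thus not alike throughout, and no test was made of this.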
